A study of Mus musculus with 8 samples.

Results

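Metallothioneins and zinc transporters set how much zinc a macrophage holds free in its cytosol, and 8 of their genes are described here: Mt1, Mt2, Mtf1, Slc30a1, Slc30a4, Slc39a1, Slc39a10 and Slc39a14. They were chosen by symbol among the 17823 genes of the deposited count table, and all 8 passed the filter on low counts. The cells were macrophages of C57BL/6 mice, grown from bone marrow in M-CSF (20 ng, recombinant murine) over 7 days and then given 1 µg/ml of lipopolysaccharide (LPS) from Escherichia coli O111:B4. All of them carried the label Il19-tdT, a tdTomato reporter of the cytokine gene Il19, and the 2 groups are tdT-positive and tdT-negative cells, with 4 libraries each. Both groups had the same culture and the same LPS, so no untreated macrophages enter any comparison. The sources used here do not say how the cells were separated, how old the mice were or how long LPS was present. The comparison asks how zinc binding, zinc import and zinc export genes differ between macrophages that express the reporter and those that do not.

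Metallothioneins are small cysteine-rich proteins that bind zinc and copper. Mtf1 encodes the zinc-sensing transcription factor that binds metal response elements and induces the metallothionein genes and the zinc exporter gene Slc30a1 when free zinc is high. Transporters of the Slc30 family carry zinc out of the cytosol, and those of the Slc39 family carry it in. Macrophages are known to induce metallothioneins after LPS and to move zinc in ways that withhold it from microbes.

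Mt1 and Mt2 are neighbours on the plus strand of chromosome 8, and both are induced through metal response elements, as is Slc30a1. The windows around their starts are shown because Mt2 and Slc30a1 are among the members that passed a test below. The sequences are those of RefSeq on GRCm38.p6, 250 bases before to 50 after a transcript start, and cover the flank and the first bases of that transcript. The last 30 bases of the Mt2 window and of 1 Slc39a10 window were in no GENCODE M21 transcript of the gene, so these starts are uncertain. For Mt1 and Slc30a1 the annotated gene begins further upstream, inside the window. Capitals mark the core of the metal response element, searched as TGCACNC and TGCGCNC (N is any base) on both strands. The windows are chr8:94178839-94179138 for Mt1, chr8:94172368-94172667 for Mt2 and chr1:191906531-191906830 for Slc30a1, all on the plus strand.
Mt1: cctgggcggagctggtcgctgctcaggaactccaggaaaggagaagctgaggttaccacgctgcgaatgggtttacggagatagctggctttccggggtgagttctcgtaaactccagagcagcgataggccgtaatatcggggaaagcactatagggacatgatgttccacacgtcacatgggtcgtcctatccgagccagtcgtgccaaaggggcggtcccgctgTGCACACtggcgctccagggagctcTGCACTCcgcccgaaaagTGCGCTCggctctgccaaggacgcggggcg
Mt2: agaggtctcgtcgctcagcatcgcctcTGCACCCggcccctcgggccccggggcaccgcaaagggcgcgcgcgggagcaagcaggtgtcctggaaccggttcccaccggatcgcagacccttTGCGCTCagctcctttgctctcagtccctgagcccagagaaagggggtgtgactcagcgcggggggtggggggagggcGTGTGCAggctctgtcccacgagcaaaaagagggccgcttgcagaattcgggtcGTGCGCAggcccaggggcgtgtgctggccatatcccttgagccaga
Slc30a1: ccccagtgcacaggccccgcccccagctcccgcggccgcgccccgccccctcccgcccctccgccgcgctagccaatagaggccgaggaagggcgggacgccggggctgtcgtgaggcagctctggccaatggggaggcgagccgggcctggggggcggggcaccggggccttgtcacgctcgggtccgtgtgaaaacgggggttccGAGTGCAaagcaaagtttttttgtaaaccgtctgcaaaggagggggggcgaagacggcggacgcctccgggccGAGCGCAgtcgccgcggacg
Mt1 had 3 matches, all on the gene's strand, from 23 bases before the transcript start of its window to 27 bases after it. Which start of the gene these cells used was not examined, and matches outside the window were not counted. Mt2 had 4 matches, 2 on each strand, and no matches overlapped. Slc30a1 had 2 matches, both on the strand opposite to the gene. Of all 32851 RefSeq windows of the same length, 25.7% held at least 1 match and 0.517% held 4 or more. Of the 9607 genes tested that have a window, 39.6% held at least 1 match and 0.958% held 4 or more, in the window with the most matches. The cut of 4 equals the count of Mt2, the highest among the members, so these shares are a description. Shares for 2 or 3 matches were not computed, and the windows were not matched for base composition. A window was matched for 7 of the 8 members. The window of Slc30a4 had 3 matches, and those of Mtf1 and Slc39a1 and both windows of Slc39a10 had 0. A match is a string of letters, and binding there was not measured.

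The 8 libraries held between 49850537 and 58516454 counts, at which 3 counts correspond to at most 0.0696 CPM (counts scaled to a common library size). The label check, Il19, gave 185 ± 36.6 CPM (SD, n = 4) in tdT-positive libraries, against 12 ± 3.45 CPM in the others. Summed over 6 macrophage markers the range was 7500 to 11070 CPM in tdT-positive and 6655 to 11490 CPM in tdT-negative libraries. Both minima were in replicate 4, and their part in the differences of the members was not tested. Of these 6 markers, Adgre1, which encodes F4/80, was the most abundant and averaged 3596 and 3973 CPM. The least abundant was Mertk, a receptor for apoptotic cells named after its values were seen. It averaged 19.0 and 11.3 CPM and was the only marker of the 6 to pass with the block (log2 fold change 0.73, SE 0.11, adjusted p = 0.0110). Markers of other cells were higher in the tdT-negative libraries, and their part in the differences of the members was not tested. Summed over 8 stromal markers the range was 56.7 to 144 CPM in tdT-positive and 243 to 2208 CPM in tdT-negative libraries, led by Col1a1. Over 7 neutrophil markers it was 3.18 to 6.81 against 14.4 to 274 CPM, led by S100a9, and Elane and Prtn3 had 0 counts in all tdT-positive libraries. Over 5 monocyte markers, led by Chil3, it was 8.35 to 10.6 against 29.1 to 166 CPM, and over 6 osteoclast markers, led by Acp5, 59.2 to 112 against 78.6 to 1373 CPM. The stromal and osteoclast maxima were both in tdT-negative replicate 4. The ribosomal precursor Rn45s took 12.3% of the counts of tdT-positive replicate 3 and at most 0.734% of the others. In bulk RNA, fewer cells of a type and less RNA per cell cannot be told apart.

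All values are CPM after library scaling, with counts per gene as deposited, and each log2 fold change sets tdT-positive against tdT-negative and comes with its standard error (SE). The main test was the edgeR quasi-likelihood test with the group alone, with p-values adjusted by Benjamini-Hochberg over the 12610 genes tested. None of the 8 members passed an adjusted p under 0.05 there, where 0.0238% of all genes passed, and 1 member had an unadjusted p under 0.05, as did 16.3% of all genes. DESeq2's Wald test, without the replicate number, passed 0 members and 7.34% of all genes with an adjusted p. Libraries with the same replicate number varied together, and with that number as a block 3 members passed, all higher in the tdT-positive libraries: Mt2, Slc30a1 and Slc39a14. In that fit 15.8% of all genes passed, 8.03% higher and 7.81% lower. An unadjusted p under 0.05 was reached there by 6 members and by 32.7% of all genes. The median log2 fold change was 0.23 over the 8 members and 0.005 over all genes tested, in the fit with the block. The members were chosen with earlier results of these data known. These shares and medians therefore describe the members and do not test zinc genes as a class.

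Per kilobase of the gene length in the table, the metallothioneins were the most abundant members and the transporters Slc39a10 and Slc30a4 the least. The mean over the 8 libraries was 252 CPM per kilobase for Mt1, 193 for Mt2, 90.5 for Slc39a1, 25.8 for Slc39a14, 8.88 for Slc30a1, 4.83 for Mtf1, 1.66 for Slc39a10 and 1.62 for Slc30a4. Mt1 and Mt2 overlapped over the libraries, as did Mt2 and Slc39a1, and Slc39a10 and Slc30a4. The other neighbours in this order did not overlap in any library. Importers thus spanned from 1.66 (Slc39a10) to 90.5 CPM per kilobase (Slc39a1).

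**Figure D1:**
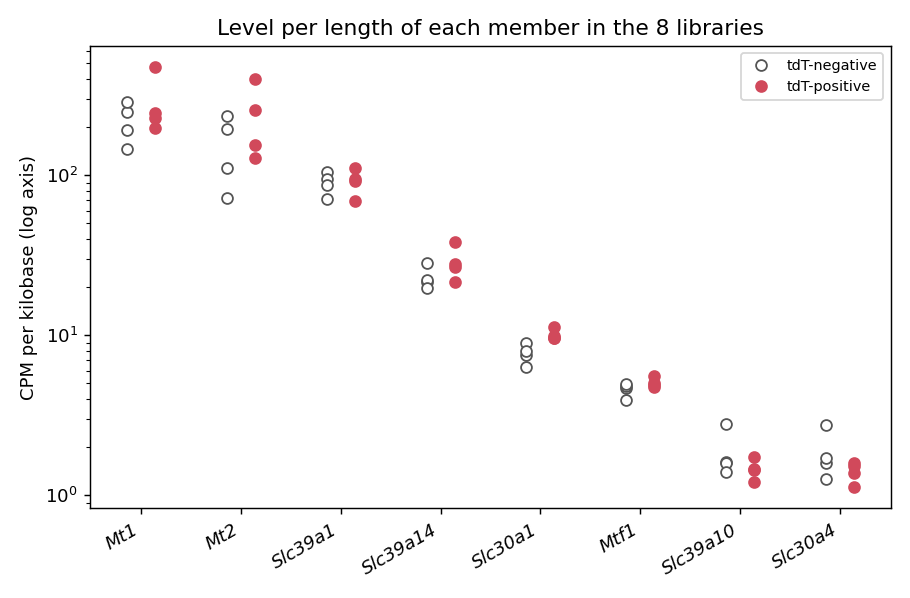
Level of each member in CPM per kilobase (log axis) in the 4 tdT-negative (open) and 4 tdT-positive (filled) libraries, 1 point per library, with genes ordered by their mean. The 2 metallothionein genes lie at the top, with means of 252 and 193, and Slc39a10 and Slc30a4 at the bottom, with means of 1.66 and 1.62.

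Of the metallothioneins, Mt2 was higher in the tdT-positive library of every number, and Mt1 in 3 of 4. Mt2 (Entrez 17750, chromosome 8, 94172618 to 94173567) was at 71.4, 85.5, 141 and 222 CPM in tdT-positive replicates 1 to 4. It was at 40.1, 61.9, 108 and 130.1 CPM in the tdT-negative replicates. The groups overlapped, since both libraries of number 4 were the highest of their group and both of number 1 the lowest. Within numbers the ratio was 1.78, 1.38, 1.31 and 1.71. The group means were 130.1 ± 68.3 and 85.1 ± 41.3 CPM (SD, n = 4), and the log2 fold change of 0.61 had an SE of 0.44 without the block (edgeR, adjusted p = 0.561). With the block Mt2 rose by 0.61 (SE 0.09, adjusted p = 0.0100). This call held without number 1, 2, 3 or 4, with adjusted p of 0.0322, 0.0453, 0.0418 and 0.00451, and under scaling by library totals (0.0235). Without number 4 the log2 fold change was 0.57 with the block. The tdT-negative library of number 4 held the most stromal and osteoclast markers and the fewest neutrophil markers of its group. Both libraries of number 4 had the lowest macrophage marker sum of their group. Without the block, leaving out tdT-positive replicate 4 gave a log2 fold change of 0.22.

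Mt1 (Entrez 17748, chromosome 8, 94178883 to 94180327), which lies 5315 bases downstream of Mt2, was at 108, 123, 132 and 257 CPM in tdT-positive replicates 1 to 4. The tdT-negative replicates held 79.4, 104, 135 and 155 CPM. tdT-positive replicate 4 stood well above the other 7 libraries, which overlapped. Its log2 fold change was 0.39 (SE 0.31, adjusted p = 0.593) without the block and 0.35 (SE 0.12, adjusted p = 0.0849) with it, so Mt1 passed neither fit. Without tdT-positive replicate 4 it was 0.03 in the fit without the block. In number 3 the positive library held 0.982 times the Mt1 of the negative one, whereas its Mt2 was 1.31 times as high.

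The balance between the 2 genes did not depend on library scaling. The ratio of Mt2 to Mt1 per kilobase was 0.647, 0.677, 1.04 and 0.842 in tdT-positive replicates 1 to 4. It was 0.492, 0.582, 0.781 and 0.816 in the tdT-negative replicates. The ratio was higher in the tdT-positive library of each number, by least in number 4, and the groups overlapped. This ratio was chosen after the values of both genes had been seen and was not tested. The transcripts of Mt1 and Mt2 in GENCODE M21 shared no 50-base stretch with those of any other gene, each other included. An antisense gene model, Gm45774, covers 432 exon bases of Mt2.

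**Figure D2:**
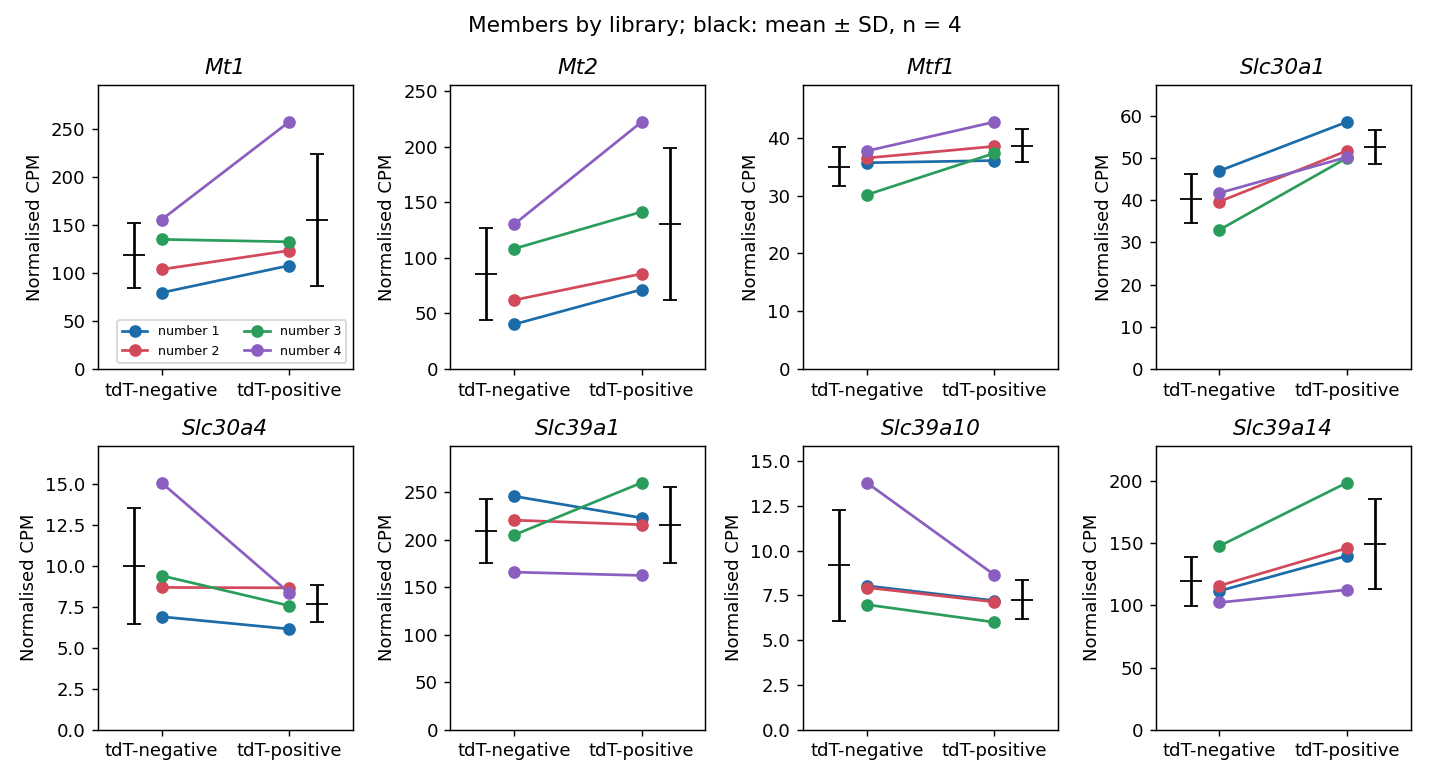
Normalised CPM of each member, with 1 line per replicate number joining its tdT-negative and tdT-positive library, and the mean ± SD of each group (n = 4) in black beside the points. Mt2, Slc30a1, Mtf1 and Slc39a14 were higher in the positive library of all 4 numbers, and Mt1 reached 257 CPM in tdT-positive replicate 4.

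Mtf1, the regulator itself, did not pass either fit. Mtf1 (Entrez 17764, chromosome 4, 124802549 to 124849800, plus strand) was at 36.1, 38.5, 37.3 and 42.8 CPM in tdT-positive replicates 1 to 4. The tdT-negative replicates held 35.7, 36.5, 30.2 and 37.7 CPM. It was higher in the positive library of all numbers, by 1.01 to 1.24 times, and its groups overlapped. The log2 fold change was 0.15 with the block (SE 0.07, adjusted p = 0.190) and 0.14 without it (SE 0.10, adjusted p = 0.522). With the block it was 0.08 without number 3 and 0.07 under scaling by library totals. Without the block it was 0.08 without tdT-negative replicate 3 and 0.09 without tdT-positive replicate 4. Exons of Mtf1 share 721 bases with 1110065P20Rik on the other strand, which averaged 6.55 and 8.01 CPM. The strand setting of the counting is not given, so reads from the shared stretch cannot be told apart.

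Among the exporters, Slc30a1 was the only member whose groups did not overlap, and it rose with the block. Over all genes tested, 11.4% had groups that did not overlap. Slc30a1 (Entrez 22782, chromosome 1, 191906697 to 191913248, plus strand) encodes ZnT1, which exports zinc across the plasma membrane. Its level was 58.5, 51.7, 49.98 and 50.2 CPM in tdT-positive replicates 1 to 4. In the tdT-negative replicates it was 46.9, 39.6, 32.9 and 41.7 CPM. The lowest positive library thus lay above the highest negative one, by a small margin. The log2 fold change was 0.38 without the block (SE 0.11, adjusted p = 0.142) and 0.39 with it (SE 0.07, adjusted p = 0.0156). Slc30a1 no longer passed when number 2 (adjusted p = 0.0959) or number 3 (0.0555) was left out, and it passed when number 1 (0.0478) or number 4 (0.00605) was. Slc30a1 shares 468 exon bases with the antisense gene 1700034H15Rik, which was at 0.232 and 0.136 CPM.

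Slc30a4, which encodes a transporter that loads zinc into vesicles, was lower in the positive library of all 4 numbers (of 3 when scaled by library totals) but passed neither fit. Slc30a4 (Entrez 22785, chromosome 2, 122681233 to 122702663, minus strand) was at 6.16, 8.67, 7.58 and 8.38 CPM in tdT-positive replicates 1 to 4. It was at 6.91, 8.70, 9.42 and 15.1 CPM in the tdT-negative replicates. In number 2 the libraries were nearly equal, with a ratio of 0.997, and in number 4 the ratio was 0.555. The log2 fold change with the block was -0.34 (SE 0.14, adjusted p = 0.150), and without number 4 it was -0.15 (adjusted p = 0.317).

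Of the importers, Slc39a14 rose with the block, Slc39a10 was lower in all numbers without passing, and Slc39a1 had no common direction. Slc39a14 (Entrez 213053, chromosome 14, 70303467 to 70351452, minus strand) encodes ZIP14, which takes up zinc as well as iron and manganese and is known as an inflammation-induced gene of the liver. It was at 139.9, 146, 199 and 113 CPM in tdT-positive replicates 1 to 4. The tdT-negative replicates held 112, 116, 148 and 102 CPM. The groups overlapped, since both libraries of number 3 were the highest of their group and both of number 4 the lowest, but the positive library was higher in each number, by 1.10 to 1.35 times (in 3 of 4 when scaled by library totals). The log2 fold change was 0.32 without the block (SE 0.18, adjusted p = 0.434) and 0.31 with it (SE 0.07, adjusted p = 0.0243). Without the block it was 0.16 when tdT-positive replicate 3, its highest library and the one with the most Rn45s, was left out. Slc39a14 no longer passed when number 1 (adjusted p = 0.0840), number 2 (0.140) or number 3 (0.0918) was left out, nor with the block under scaling by library totals (0.0871).

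Slc39a10 (Entrez 227059, chromosome 1, 46807544 to 46925776, minus strand) encodes ZIP10, an importer that Mtf1 is known to repress when zinc is plentiful. It was at 7.21, 7.14, 6.01 and 8.66 CPM in tdT-positive replicates 1 to 4. It was at 8.04, 7.94, 6.99 and 13.8 CPM in the tdT-negative replicates. Within numbers the positive library held 0.897, 0.899, 0.860 and 0.627 times the level of the negative one. The log2 fold change was -0.34 without the block (SE 0.22, adjusted p = 0.517) and -0.30 with it (SE 0.11, adjusted p = 0.112). Without number 4 it was -0.16 with the block. tdT-negative replicate 4, the highest library for both Slc39a10 and Slc30a4, is also the one with 1373 CPM of osteoclast and 2208 CPM of stromal markers, and the part of those cells in these values was not tested.

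Slc39a1 (Entrez 30791, chromosome 3, 90248190 to 90253613, plus strand) encodes ZIP1, a zinc importer of the plasma membrane and the most abundant transporter among the members. It ranged from 162 to 259.9 CPM over the tdT-positive libraries and from 166 to 246 CPM over the tdT-negative ones. Only number 3 had more in the positive library. The log2 fold change was 0.03 with the block (SE 0.09, adjusted p = 0.813), and its sign turned to -0.04 under scaling by library totals. Of its 50-base stretches in GENCODE transcripts, 21.8% also occur in the pseudogene Slc39a1-ps, so its counts are uncertain.

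**Figure D3:**
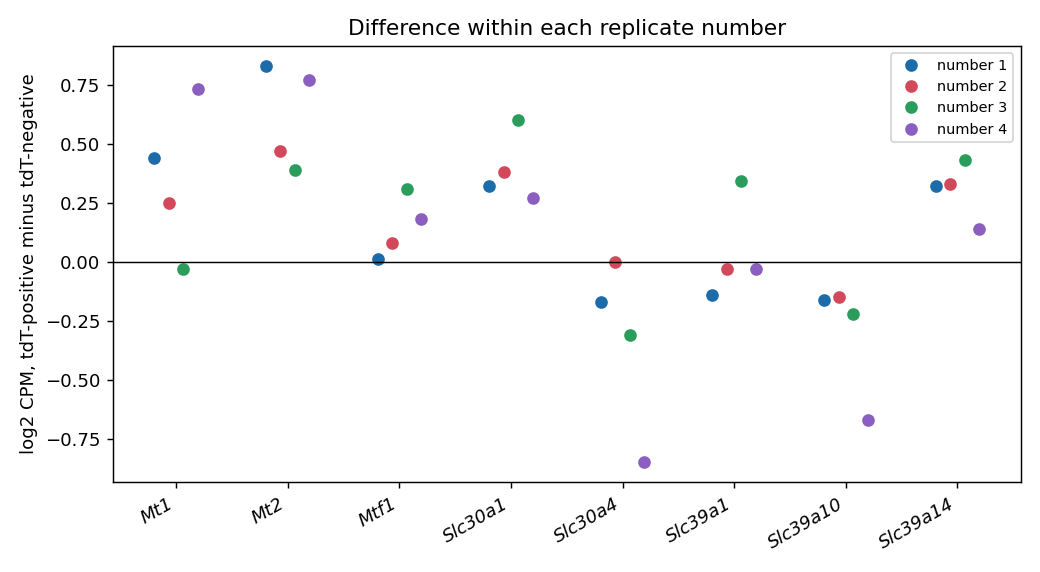
Difference in log2 CPM between the tdT-positive and tdT-negative library of each replicate number, for each member, with 1 point per number and a line at 0. The points of Mt2, Slc30a1, Mtf1 and Slc39a14 all lie above 0. Those of Slc30a4 in number 4 (-0.85) and Slc39a10 in number 4 (-0.67) lie lowest.

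Across the 8 members, 4 were higher in the positive library of all 4 numbers and 2 were lower in all 4. Of all genes tested, 21.9% were higher in all numbers and 19.6% lower in all. The members higher in all numbers were Mt2, Mtf1, Slc30a1 and Slc39a14, and those lower were Slc30a4 and Slc39a10. Scaled by library totals alone, Slc39a14 in number 4 had a ratio of 0.998 and Slc30a4 in number 2 one of 1.005, so these 2 genes then had no common direction. The ratio of the importer Slc39a10 to the exporter Slc30a1 per kilobase, which does not depend on scaling, was 0.130, 0.146, 0.127 and 0.182 in tdT-positive replicates 1 to 4. It was 0.181, 0.211, 0.224 and 0.349 in the tdT-negative replicates. The ratio was lower in the positive library of each number, and the groups overlapped by 1 library each. These 2 genes were paired after their values had been seen, so the ratio carries no test.

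The members also differed in how far they spread over libraries of 1 group. Mt2 spanned 3.11-fold among the tdT-positive and 3.25-fold among the tdT-negative libraries, and Mt1 2.39-fold and 1.96-fold. Slc30a1 spanned 1.17-fold and 1.43-fold, and Mtf1 1.19-fold and 1.25-fold. The group means differed 1.53-fold for Mt2 and 1.31-fold for Mt1. A range from lowest to highest library and a ratio of means are unlike measures. The range was the larger for other members too, such as Slc39a1, with 1.60-fold and 1.48-fold against 1.03-fold.

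**Figure D4:**
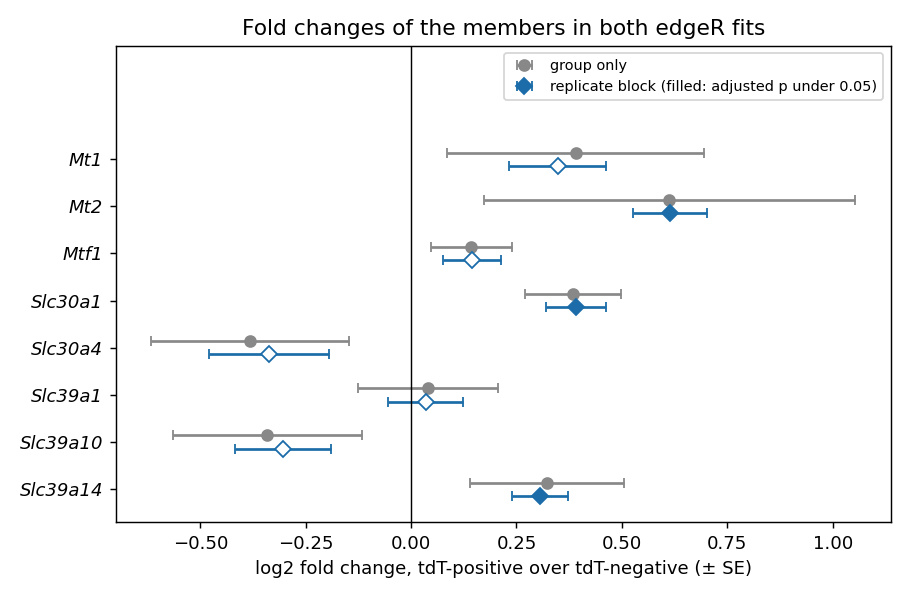
Log2 fold change (± SE) of each member in the edgeR fit with the group alone (grey circles) and with the replicate number as a block (blue diamonds, filled where the adjusted p is under 0.05). The fold changes are alike in both fits, for example 0.61 for Mt2, while its SE is 0.44 without the block and 0.09 with it.

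The genes whose levels over the 8 libraries were most like those of Mt1 were 2010111I01Rik, Prdx1, Cbr3, Dnmt3l and Slc7a11. Likeness was the root mean square difference between log2 CPM profiles, each centred on its own mean, over 9200 genes whose log2 CPM averaged 2 or more. It was 0.136 for 2010111I01Rik, 0.142 for Prdx1 (a peroxiredoxin gene), 0.156 for Cbr3 (a carbonyl reductase gene) and 0.163 for both Dnmt3l and Slc7a11, which encodes a cystine transporter subunit. Prdx1, like Mt1, was highest in tdT-positive replicate 4, at 5402 CPM, and lowest in tdT-negative replicate 1, at 1696 CPM. Mt2 came 189th in this order, at 0.317, and Mtf1 1333rd, at 0.415. The libraries share their replicate numbers, so this likeness is a description of these 8 libraries.

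None of the remaining zinc genes passed. Of 22 further metallothionein and zinc transporter genes, 20 were matched in the table and 12 passed the filter, and 0 of the 12 passed with or without the block, or with DESeq2. Of these 12, 1 had an unadjusted p under 0.05 with the block and 0 without it, beside 32.7% and 16.3% of all genes. Their median log2 fold change with the block was -0.03, beside 0.005 for all genes. Members and remaining zinc genes were divided with earlier results known, so the contrast between them is not a test. Slc39a7, an importer gene of the endoplasmic reticulum and Golgi and the most abundant of them, averaged 227 ± 26.9 and 206 ± 20.6 CPM. With the block its log2 fold change was 0.14 (SE 0.06, adjusted p = 0.184). With the block, the smallest adjusted p of the 12 was that of Slc39a4, an importer gene known for zinc uptake in the gut, named after its values were seen. Slc39a4 was at 15.8, 19.1, 14.2 and 26.2 CPM in tdT-positive replicates 1 to 4, and at 13.8, 15.99, 12.97 and 16.8 CPM in the tdT-negative ones. With the block its log2 fold change was 0.31 (SE 0.10, adjusted p = 0.0765). Slc39a8, an importer gene known to respond to NF-kB, was low, at 1.64 ± 0.145 and 1.79 ± 0.390 CPM.

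**Figure D5:**
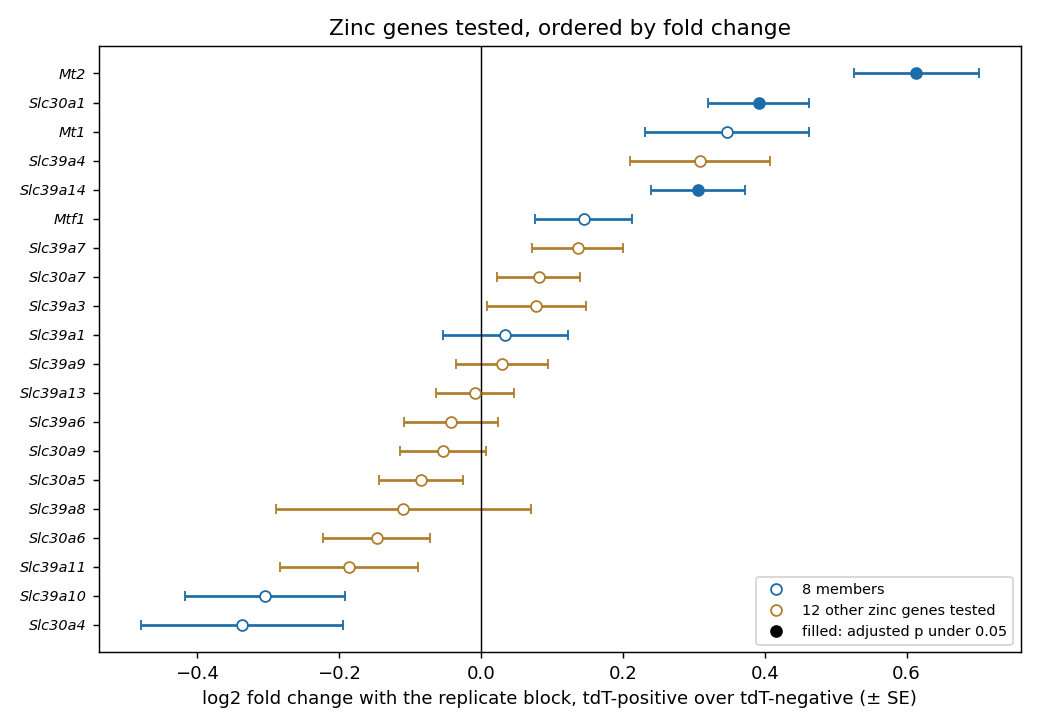
Log2 fold change (± SE) with the replicate block of the 8 members (blue) and the 12 further zinc genes that passed the filter (brown), ordered by value, with filled points where the adjusted p is under 0.05. The filled points are Mt2 (0.61), Slc30a1 (0.39) and Slc39a14 (0.31), and Slc30a4 (-0.34) and Slc39a10 (-0.30) lie at the other end.

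Metallothioneins also bind copper, and copper handling genes were examined for that reason. Of 11 genes listed, 10 were tested, 0 passed without the block and 1 rose with it. With the block 15.8% of all genes passed, 8.03% higher and 7.81% lower. An unadjusted p under 0.05 was reached there by 4 of the 10 and by 32.7% of all genes. The gene that rose was Atp7a, which encodes a copper-exporting ATPase, at 160 ± 21.7 and 129.8 ± 24.9 CPM. It rose by 0.31 on the log2 scale (SE 0.07, adjusted p = 0.0320). It did not pass when number 2 (adjusted p = 0.144) or number 3 (0.0995) was left out, nor under scaling by library totals (0.0750). Without number 4, 5 of the 10 passed, 2 of them higher, in a fit where 20.2% of all genes passed. The most abundant member, the copper importer gene Slc31a1, averaged 676 and 657 CPM and did not pass (adjusted p = 0.657 with the block). The list's median was 0.03 with the block.

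Mt1 and Mt2 are also known as glucocorticoid-induced genes. A list of 8 genes was examined for that reason, with the receptor's own gene Nr3c1 counted in it beside induced genes. Of these, 7 were tested, 0 passed without the block and 2 rose with it, where 8.03% of all genes passed as higher. The median with the block was -0.05 over the list. An unadjusted p under 0.05 was reached with the block by 6 of the 7, in both directions, beside 32.7% of all genes. Sgk1, Klf9 and Fkbp5 were lower in the tdT-positive library of all 4 numbers and did not pass with the block, with log2 fold changes of -0.22 (adjusted p = 0.0502), -0.74 (0.0937) and -0.42 (0.113). Per1, a clock gene, was at 32.0 ± 4.53 and 23.9 ± 0.966 CPM, its groups did not overlap, and its log2 fold change with the block was 0.41 (SE 0.08, adjusted p = 0.0181). Nr3c1, the gene of the glucocorticoid receptor itself, rose by 0.29 (SE 0.07, adjusted p = 0.0336). Leaving out number 2 (adjusted p = 0.0767) or number 3 (0.0608) ended the call of Per1. Leaving out number 1 (adjusted p = 0.0501), number 2 (0.140) or number 3 (0.0738), or scaling by library totals (0.107), ended that of Nr3c1. The most abundant of the list, Dusp1, averaged 332 and 293 CPM (adjusted p = 0.148), and Tsc22d3, which encodes the glucocorticoid-induced leucine zipper protein, did not pass (adjusted p = 0.705).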

How the data were processed

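Polyadenylated RNA of 8 libraries was sequenced. Per the submitters' processing notes, STAR and the mm10 genome were used, and the sources used here name no counting tool, annotation or strand setting. The authors deposited whole-number counts per gene with a gene length in bases. Genes were kept by the default filter of edgeR 4.0.16 (minimum count 10), which left 12610, scaled by TMM factors and compared with its quasi-likelihood test, adjusted by Benjamini-Hochberg at a threshold of 0.05. The members and lists were chosen with earlier results of these data known. Named by rule are all members, up to 6 passing genes and the most abundant gene of each list, and the most abundant marker of each cell type. The rule also covers the 5 genes nearest to Mt1, and Il19 as the label check. Other genes, such as Slc39a8, Sgk1, Klf9, Fkbp5, Tsc22d3 and Mt3, were named outside this rule and are a selection.

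The titles give both groups the same replicate numbers. Within numbers, deviations from group means were correlated by 0.63, 0.28, 0.62 and 0.56, all above 0.1, so values with the number as a block are printed where they change a call. No label ties a number to a mouse or culture, and p-values reflect only how far these samples spread, which may be technical. No library repeated another (chi-square per degree of freedom at least 54.0 within groups). Alternatives were other scalings, filters, the block, DESeq2 1.42.0 and leaving out libraries. The scripts were tested on simulated data.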

Additional observations from a re-analysis of the deposited data

Results flagged for a closer look

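In tdT-positive replicate 4, Mt1 was at 257 CPM, which lay far from the other 3 libraries of its group (108 to 132 CPM) relative to the group's range. In tdT-negative replicate 4, Slc39a10 was at 13.8 CPM, likewise far from the other 3 (6.99 to 8.04 CPM). These are 2 of 16 groups of 4 libraries examined, and chance alone sets apart about 1 in 20 groups.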

How the results depend on the processing

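The number of members that passed was 0 without the block, 3 with the replicate block, 2 with the block and library totals, and 3 with the block and either DESeq2 size factors or the counts of Rn45s and Lars2 removed; over all alternatives that left out libraries it lay between 0 and 3. Of all genes, 3 passed without the block, 1998 with it, 1418 with it and library totals, 1990 with it and DESeq2 size factors, 2005 with it and without Rn45s and Lars2, 921 with the DESeq2 Wald test and 216 without a filter, and between 2 and 2535 when libraries were left out (with the block 1023, 347, 355 and 2535 without numbers 1 to 4, and 456 without tdT-negative replicate 1 and 225 without tdT-negative replicate 4, in the fit without the block). The share of higher genes among those that passed with the block was 50.7%, or 29.8% with library totals. Of the copper list, 1 passed with the block, also with DESeq2 size factors or without Rn45s and Lars2, and 0 to 5 with libraries left out. Of the glucocorticoid list, 2 passed with the block, 1 with the DESeq2 Wald test, 1 with the block and library totals, 2 with DESeq2 size factors, 3 without Rn45s and Lars2 (the third, Sgk1, lower with an adjusted p of 0.04996), and 0 to 2 with libraries left out. Slc39a1 reversed to -0.039 with library totals, to -0.043 with library totals and the block, and to -0.075 with the block and without number 3. When 1 library was left out it lay between -0.059 (without tdT-positive replicate 3, and similar without tdT-negative replicate 4, -0.058) and 0.15. The other 7 members kept their sign in all 21 alternatives. The cause of these changes was not tested. The settings that join the block with another scaling or remove Rn45s and Lars2 were chosen after seeing the data.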

Other observations

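Mt3, the metallothionein gene best known from the brain, lies in the same stretch of chromosome 8 (94152607 to 94154148) and was below the filter. It had 80 counts in tdT-negative replicate 4, or 1.35 CPM, and 0 to 8 counts in each of the other 7 libraries. Commd1, a gene of copper homeostasis named here after its values were seen, averaged 33.4 ± 1.53 CPM over the tdT-positive libraries and 41.0 ± 5.79 CPM over the tdT-negative ones (SD, n = 4), and the groups did not overlap. Its log2 fold change with the block was -0.28 (SE 0.10, edgeR adjusted p = 0.0902), and it passed without number 4 (-0.36, adjusted p = 0.0172).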
